A study of Saccharomyces cerevisiae with 8 samples.

Results

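The introns described here are the longer introns of budding yeast protein-coding genes that do not encode ribosomal proteins. An intron was taken when it was the single nuclear intron interval of its gene, was at least 150 bases long and was counted together with the coding sequence (CDS) of the same gene. Introns of ribosomal protein (RP) genes, of HAC1, of hosts of small nucleolar RNAs and of a set of cytoskeletal and meiotic genes were left out. Of 29 such introns, 26 passed a minimum on low values (means over the libraries of 5 or more counts in the intron and 20 or more in the CDS), among 255 introns that passed it in the whole series. The other 3, in YHL050C, YIL177C and YJL225C, had at most 2 intron counts in any library and were not tested. The 26 introns ranged from 152 bases (CQD1) to 1002 bases (DBP2), with a median of 336. The rule uses position, length and mean counts over the libraries, and no difference between them.

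Cells of Saccharomyces cerevisiae strain BY4741, a haploid laboratory strain, grew in rich medium (YPD) with LiCl only, with cycloheximide only, with 5 mixtures of LiCl and cycloheximide, or with no drug. The drug conditions lie on an isobole, a line of changing drug ratio along which growth is inhibited to the same degree, with cycloheximide only as point 1, the mixtures as points 2 to 6 and LiCl only as point 7. Total RNA was depleted of ribosomal RNA and sequenced from 1 culture per condition, 8 libraries in all, so differences between 2 libraries have no replicate check. According to the paper, the culture with no drug was also started from a more dilute inoculum than the others.

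Pre-mRNA introns are removed by the spliceosome, which recognises a 5′ splice site, a branch point and a 3′ splice site. The 5′ splice site is first bound by U1 and the branch point by the branch-point binding protein, and budding yeast is known for following fixed motifs at both more closely than most eukaryotes. Most of its genes have no intron, and retained introns often carry stop codons that expose the transcript to nonsense-mediated decay. LiCl puts cells under osmotic and cationic stress, and cycloheximide blocks elongation at the large ribosomal subunit.

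The first bases of these introns fell into 2 kinds, and they are shown because no intron of the second kind was called rising along the isobole. In 19 of 26 introns the first 6 bases were GTATGT, the yeast 5′ splice site consensus; 72.4% of the 246 single-interval introns tested in the whole series carry it. Below are the first 20 bases of 5 introns that carry it, read 5′ to 3′ from RefSeq build R64 on the coding strand, with the first 6 bases in capitals.
ECM33: GTATGTacacattctccttt
GLC7: GTATGTtaatgttgaacttc
MPT5: GTATGTattatctcttaatt
DBP2: GTATGTtaaaattttctcca
VMA10: GTATGTgccattacattacg

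The other 7 introns, shown in the same way, differ from the consensus at 1 base or, in CQD1 and BUD25, at 2 bases.
GCR1: GTATGAtcataacacgcatt
YOR318C: GTATGAacgtcacaattttc
YBR219C: GTACGTaacgacccctcaaa
YDR535C: GTACGTccgttatggatgtg
YJR079W: GCATGTgctgtgtactacat
BUD25: GTCAGTggtaattgagagta
CQD1: GTTCGTattttacgcatgga

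The branch point motif TACTAAC, searched on the coding strand, was present in 20 of 26 introns, compared with 85.4% of the 246 introns. It was missing as an exact match in HRB1, PSP2, YRA1, COI1, YBR219C and YDR535C. Where the motif was present, the number of bases after its last adenosine varied from 11 in MRK1 to 155 in UBC13. Whether these matches are the branch points used was not tested. The surroundings of the motif, in capitals, are shown for an intron with a near and an intron with a distant match, both of which rose along the isobole.
ECM33: atcgggaaTACTAACactacttt
UBC13: aacttacaTACTAACgcaaaact

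All 26 introns end in AG, and reading on in frame from the annotated start codon meets a stop codon inside the intron in each of them, at codon 7 in MPT5 and as late as codon 611 in CQD1.

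Intron retention was taken as intron counts per base over CDS counts per base of the same gene, so that 1 means equal read density in both. This ratio does not separate introns kept in a transcript from excised introns or from other reads that lie in the intron, and this was not tested. The paper also used reads across exon-intron junctions and polyadenylated RNA for that question, which these counts do not hold. In libraries of whole cultures, a higher ratio in every cell and a higher ratio in some cells cannot be told apart. The libraries held between 13693401 and 28042336 CDS counts. The LiCl-only library was the deepest, with 28042336 CDS counts, against 15297969 in the library with no drug. The 26 introns together had 11198 counts in LiCl only and 2218 with no drug, and the lowest count of any of them in any library was 3.

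Retention of these introns rose along the isobole in 12 of 26, and none fell. This was tested with edgeR's quasi-likelihood test on intron and CDS counts, as a slope in log2 retention per isobole point over the 7 drug libraries, with Benjamini-Hochberg adjustment over all 255 introns. Over all 255 introns 64.3% were called rising and 0% falling, so the share among the longer introns, 46.2%, was below this background. The background includes 89 RP introns, of which 88 rose. Among 97 shorter introns outside RP genes 36.1% rose. At an unadjusted p of 0.05, 13 of the 26 rose and 0 fell, and DESeq2 called 9 rising and 0 falling. The median slope was 0.13 per point in the 26 introns and 0.28 over all 255. Without the LiCl-only library only 5 of the 12 were called: ECM33, GLC7, MPT5, VMA10 and UBC13.

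**Figure D1:**
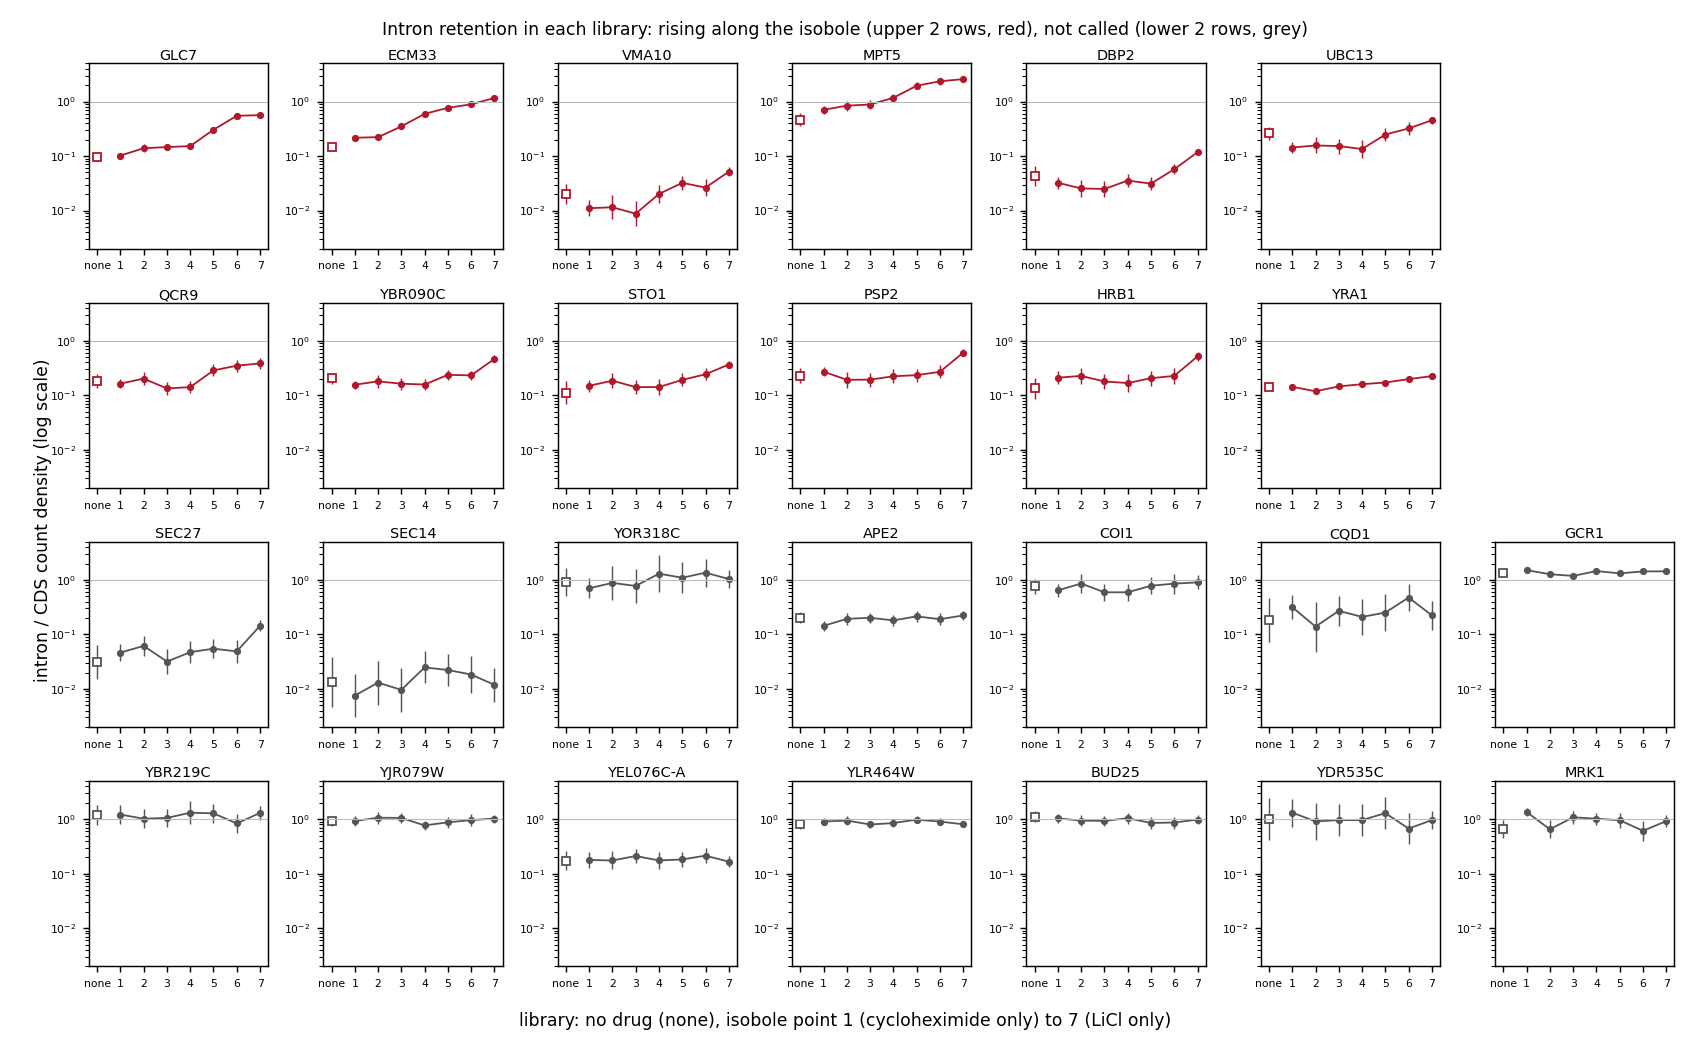
Intron retention (intron over CDS count density, log scale) in the library with no drug (open square) and at isobole points 1 to 7 (filled circles) for each of the 26 introns, with 95% counting intervals as vertical lines. The 12 introns called rising by edgeR are red, and the 14 others, most of them level, are grey; the thin line marks equal density.

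GLC7 and ECM33 had the steepest slopes of the 26 introns. ECM33 encodes a glycosylphosphatidylinositol-anchored protein needed for cell wall integrity, and its 330-base intron lies at chrII:393181-393510 (R64, plus strand). Its retention was 0.145 with no drug, then 0.217, 0.222, 0.350, 0.594, 0.766, 0.889 and 1.16 from point 1 to point 7. Each step along the isobole was upward, and in LiCl only the intron was covered as densely as the CDS. The slope was 0.44 ± 0.06 (SE, adjusted p = 1.25e-05 by edgeR), and retention was 8.0 times higher in LiCl only than with no drug (log2 change 3.00 ± 0.12, counting SE).

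GLC7 encodes the catalytic subunit of protein phosphatase type 1, and its 525-base intron lies at chrV:432672-433196. Retention was 0.0972 with no drug, then 0.102, 0.139, 0.146, 0.152, 0.304, 0.547 and 0.562 from point 1 to point 7. It stayed low up to point 4 and was high at points 6 and 7. The slope was 0.44 ± 0.06 (adjusted p = 1.63e-05 by edgeR), and the log2 change in LiCl only against no drug was 2.53 ± 0.14.

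Among genes of RNA export, processing and translation control, all 5 longer introns rose: MPT5, DBP2, STO1, HRB1 and YRA1. Of 8 other introns on the same role list, 4 rose, and of all 255 introns 64.3% rose. The list was made with earlier results of these data known, and the difference was not tested. Without the LiCl-only library, MPT5 was the only one of the 5 to keep its call. MPT5 encodes a Pumilio-family RNA-binding protein that represses target mRNAs, and its 640-base intron lies at chrVII:167355-167994. Retention of MPT5 was 0.463 with no drug, then 0.704, 0.839, 0.881, 1.17, 1.94, 2.35 and 2.57 from point 1 to point 7. It passed 1 at point 4, so that from there the intron had a higher read density than the CDS. The slope was 0.35 ± 0.05 (adjusted p = 1.32e-05 by edgeR). The reading frame YGL177W covers 54.4% of this intron on the same strand, and its reads were counted in the intron too.

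DBP2 encodes a DEAD-box RNA helicase known to limit its own expression through its intron, which at 1002 bases is the longest of the 26 (chrXIV:414912-415913). Retention of DBP2 was 0.0430 with no drug, then 0.0323, 0.0255, 0.0249, 0.0355, 0.0312, 0.0571 and 0.118 from point 1 to point 7. It was lowest in the cycloheximide-rich mixtures and highest in LiCl only. The slope was 0.31 ± 0.08 (adjusted p = 0.00245 by edgeR), against 0.16 (adjusted p = 0.0886) without the LiCl-only library.

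STO1 encodes the large subunit of the nuclear cap-binding complex, which helps splicing of capped transcripts. Its retention was 0.112 with no drug, then 0.149, 0.185, 0.141, 0.141, 0.191, 0.242 and 0.366 from point 1 to point 7. HRB1, a shuttling mRNA-binding protein of the SR type, had 0.135 with no drug, then 0.210, 0.226, 0.179, 0.167, 0.205, 0.226 and 0.516. Both were highest in LiCl only, and HRB1 lay between 0.167 and 0.226 at the points before it. The STO1 slope was 0.19 ± 0.06 (adjusted p = 0.0128 by edgeR) and became 0.11 (adjusted p = 0.203) without the LiCl-only library. The HRB1 slope was 0.17 ± 0.07 (adjusted p = 0.0453 by edgeR) and became -0.00068 without that library.

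YRA1 encodes an mRNA export adaptor that is known to control its own level through retention of its intron. That intron, 766 bases long at chrIV:1236843-1237608, is one without an exact TACTAAC. Retention of YRA1 was 0.143 with no drug, then 0.143, 0.118, 0.145, 0.159, 0.171, 0.198 and 0.224 from point 1 to point 7. The rise was small, with slope 0.13 ± 0.05 (adjusted p = 0.0319 by edgeR). The call was lost in 8 of 13 alternatives, at slopes between 0.11 and 0.13 and adjusted p between 0.0519 (DESeq2) and 0.0996.

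Of 3 introns in genes of membrane traffic and transport, 1 rose. Of 19 other introns on the same role list 9 rose, and of all 255 introns 64.3% rose. VMA10, a subunit of the vacuolar proton pump, had retention of 0.0202 with no drug, then 0.0111, 0.0115, 0.00876, 0.0201, 0.0322, 0.0264 and 0.0516 from point 1 to point 7. It was below the no-drug value at points 1 to 3 and above it at points 5 to 7, and its slope was 0.39 ± 0.07 (adjusted p = 0.000187 by edgeR). SEC27, a subunit of the COPI vesicle coat, had 0.0313 with no drug, then 0.0464, 0.0617, 0.0318, 0.0473, 0.0548, 0.0489 and 0.144. Its retention stood out in LiCl only, where it had 68 intron counts, against 7 with no drug, and its slope of 0.21 ± 0.09 did not pass (adjusted p = 0.0551 by edgeR). It was called rising in 5 of 13 alternatives (adjusted p from 0.0281 to 0.0435), and without the LiCl-only library its slope was 0.01 (adjusted p = 0.933). SEC14, the phosphatidylinositol transfer protein, had the fewest counts, from 3 to 8 per library, and retention between 0.00755 and 0.0248. Retention of SEC14 was 0.0134 with no drug, then 0.00755, 0.0131, 0.00963, 0.0248, 0.0223, 0.0184 and 0.0119 from point 1 to point 7. Its log2 change in LiCl only against no drug was -0.17 ± 0.93, so no difference was detectable at this depth.

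UBC13, the ubiquitin-conjugating enzyme of the error-free DNA damage tolerance pathway, had retention of 0.261 with no drug, then 0.143, 0.156, 0.152, 0.134, 0.248, 0.320 and 0.454 from point 1 to point 7. Points 1 to 4 lay below the culture without drug and points 6 and 7 above it. The slope was 0.29 ± 0.06 (adjusted p = 0.000323 by edgeR). PSP2, an RNA-binding protein with arginine-glycine motifs, had 0.226 with no drug, then 0.271, 0.192, 0.193, 0.223, 0.233, 0.269 and 0.602. It was high in LiCl only, its slope was 0.18 ± 0.07 (adjusted p = 0.0367 by edgeR), and without that library the slope was 0.01 (adjusted p = 0.873).

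The remaining 2 of the 12 were QCR9, a subunit of respiratory complex III, with retention between 0.133 and 0.383 and a slope of 0.23 ± 0.06 (adjusted p = 0.00479 by edgeR), and the uncharacterised YBR090C, with retention between 0.156 and 0.463 and a slope of 0.22 ± 0.06 (adjusted p = 0.0029 by edgeR). Neither call was kept without the LiCl-only library, where the slope was 0.20 in QCR9 (adjusted p = 0.0526) and 0.11 in YBR090C (adjusted p = 0.1). The coding sequence of YBR090C overlaps the neighbouring gene YBR089C-A, so its denominator also counts reads of that gene. Coding sequences of YJR079W, YBR219C, YLR464W, YEL076C-A and BUD25, whose introns were not called, overlap other genes in the same way.

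The 14 introns that were not called had slopes between -0.08 (MRK1) and 0.21 (SEC27), with a median of 0.01. In 9 of them retention lay between 0.593 and 1.51 in every library. GCR1, the transcriptional activator of glycolytic genes, had the highest retention with no drug, 1.34, then 1.51, 1.27, 1.18, 1.45, 1.32, 1.43 and 1.44 from point 1 to point 7. With 409 to 1518 intron counts per library its level was measured closely, and the log2 change in LiCl only against no drug was 0.10, with a 95% counting interval from -0.09 to 0.29. BUD25, a gene of bud site selection, had 1.10 with no drug, then 1.03, 0.939, 0.927, 1.04, 0.851, 0.865 and 0.980. YBR219C, with no known role, had 1.19, then 1.21, 1.02, 1.05, 1.31, 1.28, 0.832 and 1.30 in the same order. No slope of these 3 introns passed the test, with adjusted p from 0.708 to 0.897 by edgeR.

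YJR079W had retention of 0.931 with no drug, then 0.923, 1.06, 1.05, 0.767, 0.873, 0.958 and 1.02 from point 1 to point 7. YDR535C had 1.01, then 1.32, 0.907, 0.959, 0.959, 1.29, 0.670 and 0.959, on 7 to 37 intron counts. Neither value in LiCl only lay outside the range of the other libraries. YOR318C ranged from 0.704 to 1.36, YLR464W from 0.797 to 0.979, COI1, a protein of the mitochondrial inner membrane, from 0.593 to 0.899, and MRK1, a kinase of the glycogen synthase kinase family, from 0.609 to 1.35. APE2, an aminopeptidase, ranged from 0.144 to 0.223 and CQD1, a mitochondrial protein with a kinase-like fold, from 0.139 to 0.475 on 3 to 15 intron counts.

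YEL076C-A lies in a repeat near a chromosome end and had retention of 0.174 with no drug, then 0.178, 0.174, 0.211, 0.175, 0.182, 0.214 and 0.166 from point 1 to point 7. Its intron differs from that of YLR464W at 1 of 279 bases (99.6% identity), so most of their reads map to both, yet they were counted at 83 and 442 reads in LiCl only. How the aligner placed such reads was not tested, and both values are uncertain. Another reading frame overlaps the intron in 6 of 26 cases. Reading frames on either strand cover 100% of the YLR464W intron, 88.1% of YJR079W, 54.4% of MPT5, 49.5% of YEL076C-A, 36.8% of BUD25 and 1.9% of YBR219C. Strand was not used in counting, and a read over several features was counted for each. In the overlapped part of all 6 introns, reads of the different genes therefore cannot be told apart. The overlapping genes run in the opposite direction in YJR079W and BUD25, and YLR465C does so in YLR464W.

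The 12 rising introns all carried GTATGT, and 7 others with it did not rise, so that 12 of 19 introns with the consensus were called, against 0 of 7 without it. The median log2 change in LiCl only against no drug was 1.17 in the 19 introns and 0.13 in the 7. Over all 246 single-interval introns, 70.8% of those with GTATGT and 48.5% of the others were called rising. Among shorter introns outside RP genes 44.6% of 65 with it and 18.8% of 32 without it were called rising. Among RP introns the shares were 100% of 64 and 100% of 23. Another reading frame lay in the intron in 3 of the 19 longer introns with GTATGT and in 3 of the 7 without it. An exact TACTAAC did not separate the introns in the same way: of the 19 with the consensus, 9 of 15 with it and 3 of 4 without it rose. This grouping was made after the slopes were known and was not tested.

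Retention with no drug, a library outside the slope, was above 0.5 for 9 introns, and 0 of them rose, against 12 of the 17 below it. With no drug the ratios of these 9 already lay between 0.649 and 1.34, where 1 means equal density in intron and CDS. How much room for a rise this left was not tested, so the 0 of 9 is only a description. Across the 26 introns the slope was lower where retention with no drug was higher (Spearman's rho = -0.64, n = 26). The introns share the same libraries, and 6 of the 7 introns with another 5′ splice site were among the 9 of high retention. Another reading frame overlaps 4 of these 9 introns (YJR079W, YBR219C, YLR464W and BUD25), so their ratios also count reads of other genes. How far such reads raised the ratios was not tested. The slope was also higher where the CDS level of the host with no drug was higher (rho = 0.62). Mean CDS counts of the 9 hosts ranged from 24.5 (YOR318C) to 1582 (GCR1). The relations with retention, CDS level and 5′ splice site were not separated from each other. Intron length was hardly related to the slope (rho = 0.04), nor was GC content (rho = -0.06).

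**Figure D2:**
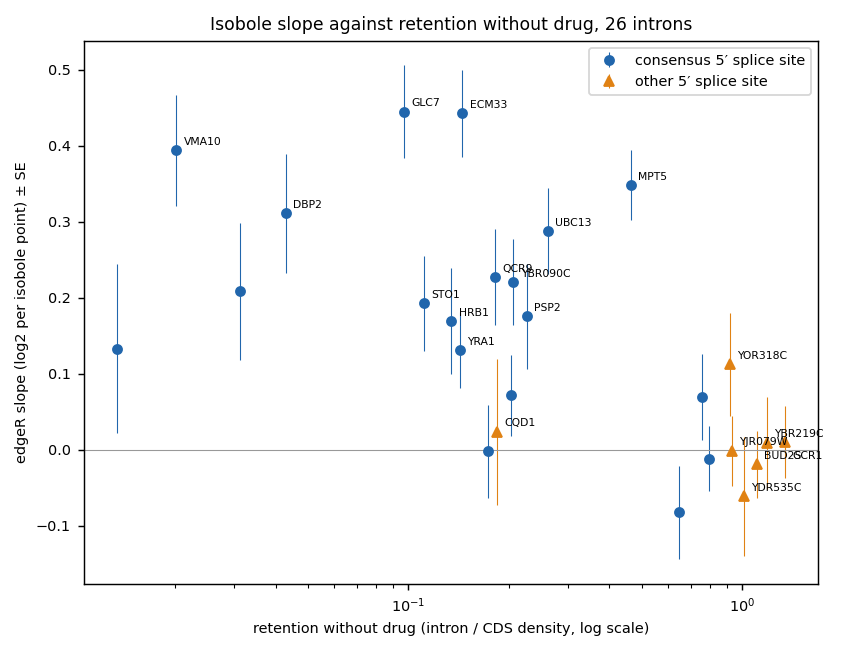
edgeR slope of retention along the isobole (log2 per point, with its SE) against retention in the library with no drug (log scale) for the 26 introns. Introns with the consensus 5′ splice site are circles and the 7 others triangles; the triangles lie near a slope of 0, from -0.06 to 0.11.

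In LiCl only against no drug, retention was at least 2-fold higher in 11 of 26 introns and at least 2-fold lower in 0, where 67.8% and 0.784% of all 255 introns were. The median log2 change was 0.58 in the 26 and 1.66 over all introns. It was higher in 22 of 26 introns, and the 95% counting interval lay above 0 in 13 and below 0 in 0. The 3 largest changes, of ECM33, GLC7 and MPT5, ranked 2, 8 and 10 among the 153 introns outside RP genes and 40, 78 and 81 among all 255.

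Cycloheximide only gave few large differences against no drug. Retention was at least 2-fold higher in 1 of 26 introns, against 6.27% of all 255, and at least 2-fold lower in 0, against 8.63%. The median log2 change was 0.03. The 1 intron was that of MRK1, with retention of 1.35 in cycloheximide only and 0.649 with no drug (log2 change 1.05 ± 0.31). UBC13 and VMA10 both changed by -0.87, with counting SE of 0.28 and 0.40, and ECM33 by 0.58 ± 0.14.

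**Figure D3:**
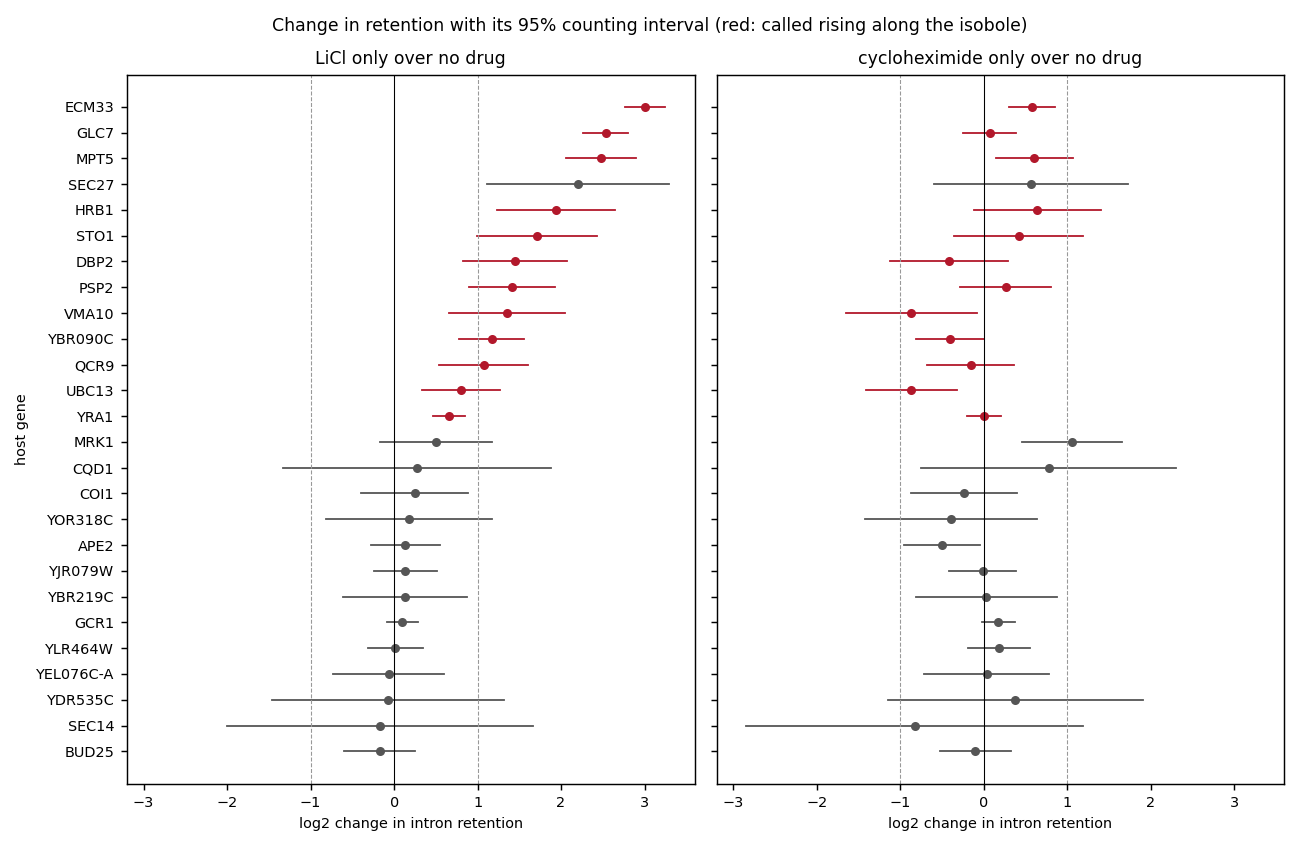
Log2 change in retention with its 95% counting interval for LiCl only over no drug (left) and cycloheximide only over no drug (right), by host gene in order of the left panel. Dashed lines mark 2-fold; in LiCl only 11 introns lie beyond the upper line, and in cycloheximide only MRK1 does.

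At matched growth inhibition, LiCl only against cycloheximide only, retention was at least 2-fold higher in 12 of 26 introns and at least 2-fold lower in 0, against 65.9% and 1.57% of all 255 introns. The median log2 change was 0.65. The largest were GLC7 (2.46 ± 0.10), ECM33 (2.42 ± 0.08) and VMA10 (2.22 ± 0.28), and UBC13, with a change of 1.67 ± 0.22, was the intron added to the 11 that passed against no drug. MRK1 went the other way, at -0.55 ± 0.24.

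The mixtures were followed in order. The number of the 26 introns at least 2-fold above no drug was 1 at point 1, then 0, 1, 2, 3, 5 and 11 up to point 7. The median log2 change from no drug was 0.03, -0.05, -0.04, 0.10, 0.28, 0.34 and 0.58 from point 1 to point 7. The step to LiCl only was therefore the largest, both in the median and in the count. At points 2 to 6 the shares over all 255 introns were 13.7%, 7.84%, 20%, 32.9% and 52.5%.

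Other classes of intron are set beside these as a description, with no test of the difference. Of 97 shorter introns outside RP genes 35 rose, with a median slope of 0.15, and of 89 RP introns 88 rose, with a median slope of 0.48. The median log2 change in LiCl only against no drug was 0.58 in the longer introns, 0.99 in the shorter and 2.78 in the RP introns. RP introns are also long (median 405 bases, against 336 here), and retention with no drug differed more than length: its median was 0.205 in the longer introns, 0.190 in the shorter and 0.0070 in the RP introns. At the length limit, CQD1 (152 bases, slope 0.02) and SEC14 (156 bases, slope 0.13) lay just inside, and OST5 (149 bases, slope 0.41) and YRF1-6 (148 bases, slope 0.02) just outside.

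**Figure D4:**
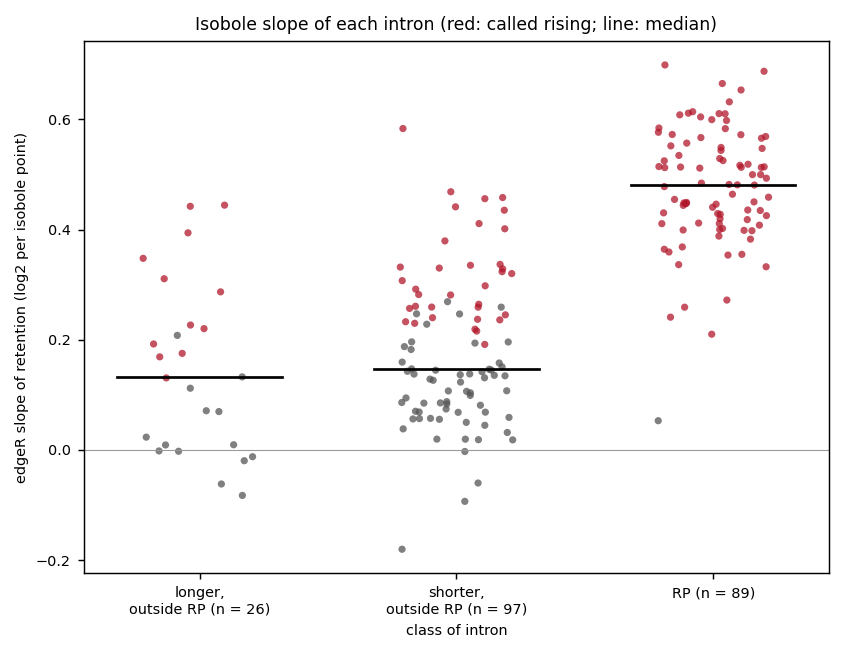
edgeR slope of retention (log2 per isobole point) of each intron in 3 classes: longer introns outside RP genes (n = 26), shorter introns outside RP genes (n = 97) and RP introns (n = 89). Red points were called rising and black lines are medians, 0.13, 0.15 and 0.48.

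A higher ratio can come from more intron reads or from fewer CDS reads, so both were followed as CPM, counts per 1000000 CDS counts after TMM scaling. Intron counts alone rose along the isobole in 7 of the 12 introns (ECM33, GLC7, MPT5, STO1, DBP2, VMA10 and UBC13) and fell in 1 of 26, MRK1. By the same edgeR test 52.5% of all 255 introns rose and 1.57% fell. In LiCl only against no drug, intron CPM was at least 2-fold higher in 9 of the 26, against 58% of all 255. ECM33 intron reads were at 99.7 CPM in LiCl only and 11.9 CPM with no drug, while its CDS was at 335.6 and 320.4 CPM. GLC7 intron reads were at 48.5 CPM in LiCl only and 9.71 CPM with no drug, and its CDS at 154 and 179 CPM. In these 2 genes the change in the ratio was a change in intron reads.

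QCR9 was the opposite case. Its intron reads were at 3.84 CPM in LiCl only and 3.90 CPM with no drug, while its CDS was at 9.49 and 20.3 CPM, so that its higher ratio came with fewer CDS reads. DBP2 had more of both: its intron was at 12.7 CPM in LiCl only and 1.68 CPM with no drug, and its CDS at 177 and 65.5 CPM. Among the host genes, CDS levels of YLR464W, YEL076C-A and YDR535C rose along the isobole and those of VMA10, QCR9 and MRK1 fell, 3 and 3 of 26, by edgeR with TMM scaling over 6498 genes, of which 16.5% rose and 15.1% fell. YLR464W and YEL076C-A, whose introns are nearly identical, had similar CDS counts (370 and 342 with no drug, 1282 and 1174 in LiCl only). Reads with several alignments counted at each, so these 2 hosts may hold the same reads. YDR535C had only 14 CDS counts with no drug and 76 in LiCl only. Without the LiCl-only library, or without the cycloheximide-only library, 0 hosts rose and 2 fell.

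**Figure D5:**
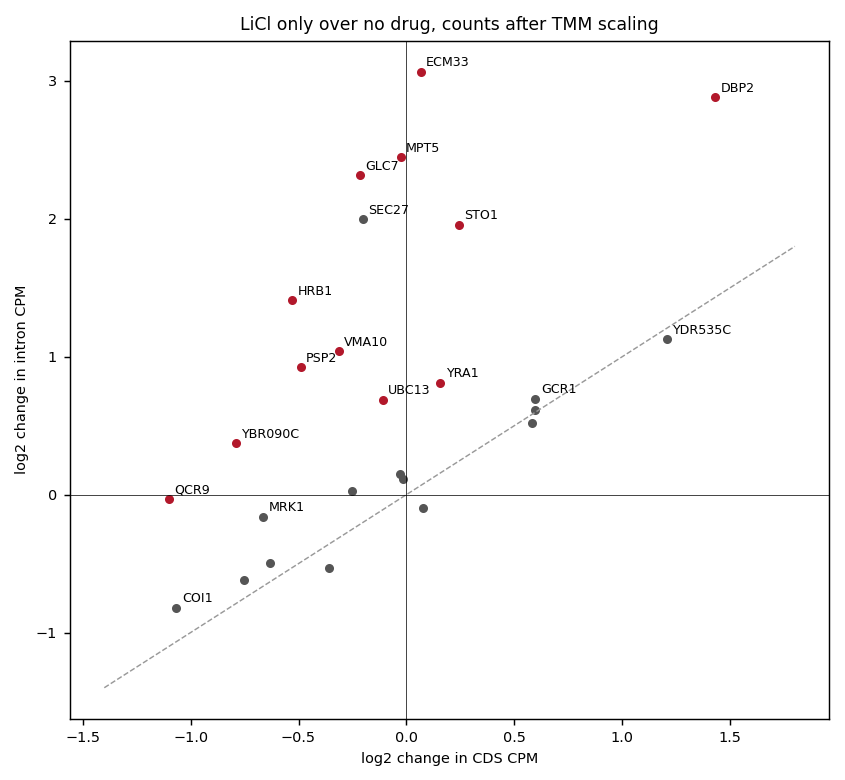
Log2 change in intron CPM against log2 change in CDS CPM of the same gene, LiCl only over no drug, for the 26 introns (red: retention called rising along the isobole). On the dashed line the ratio does not change; ECM33, GLC7 and MPT5 lie above it at an almost unchanged CDS level, and QCR9 at an unchanged intron level.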

How the data were processed

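Reads per feature were counted by the authors and deposited as raw counts, with no normalisation: per the file headers with featureCounts 1.6.2, after alignment with TopHat to genome build R64 (submitters' processing notes). Reads with several alignments counted at each of them, a read over several features counted for each, and no strand option was set. Coordinates of 24 of the 26 genes matched RefSeq R64 exactly, and YDR535C and YOR318C were not in the table used.

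Retention was the log2 ratio of intron to CDS counts per base, with a pseudocount of 0.5. Counting SE and 95% intervals of single changes come from the counts and cover counting error only; with 1 library per condition a change of at least 2-fold was called, without a test. Slopes were fitted in edgeR 4.0.16 (R 4.3.3) with a term per library and an interaction of intron with isobole point; SE is the slope over the root of its F. DESeq2 1.42.0 was an alternative. Calls had adjusted p under 0.05. Scripts were tested on simulated data. Values in full are given for the introns with the largest and lowest changes, the smallest and largest trend p and the highest retention without drug, and for 8 genes chosen by name. The introns, the gene lists and the rules were chosen with earlier results of these data known. P-values measure the spread between single cultures around a line, which may be technical.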

Additional observations from a re-analysis of the deposited data

How the results depend on the processing

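No paired analysis was possible because each condition has 1 library. The 12 rising and 0 falling introns became 9 and 0 with DESeq2, 13 and 0 with CDS counts as an offset, and 7 rising and 1 falling when intron counts were scaled by TMM or by DESeq2 size factors in place of the CDS. Without a low-count filter 2 introns (YIL177C and YJL225C, under 1 count on average) were called falling and 2 were at least 2-fold lower in LiCl only than with no drug and 3 than in cycloheximide only. Leaving out 1 library gave 5 to 13 rising and 0 to 0 falling introns, the lowest without LiCl only, and 0 to 4 rising and 2 to 4 falling hosts. Scaled intron counts gave 2 introns at least 2-fold higher in cycloheximide only than with no drug (TMM), and 7 higher and 1 lower in LiCl only than in cycloheximide only (TMM and DESeq2 size factors alike). With at least 20 intron counts the median log2 change of that last comparison was 1.15, over 23 introns. QCR9 reversed under scaled intron counts: its log2 change became -0.029 (TMM) and -0.0760 (DESeq2 size factors) in LiCl only against no drug, and -0.24 and -0.25 against cycloheximide only, since its CDS fell. Leaving out 1 library moved the HRB1 slope between -0.00068 (without LiCl only) and 0.249 (without cycloheximide only); the cause was not tested. Pseudocounts of 0.1 and 1 and a length of at least 200 bases changed no call. The slopes of ECM33, GLC7, MPT5, VMA10 and UBC13 kept their calls in all 13 alternatives.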

Other observations

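The levels of the genes that splice and degrade these transcripts were followed as CDS counts. Of 50 splicing factor genes, 14 rose along the isobole and 0 fell by edgeR's quasi-likelihood test, where 16.5% of all 6498 genes rose and 15.1% fell; at an unadjusted p of 0.05, 23 rose and 2 fell. Their median slope was 0.03 per point, against 0.0046 over all genes. PRP16, an RNA helicase of the second splicing step, was at 34.1 CPM in LiCl only and 15.98 CPM with no drug (slope 0.14 ± 0.02, adjusted p = 0.00173). PRP8, the protein at the core of the spliceosome, was at 184 and 122 CPM (slope 0.07 ± 0.02, adjusted p = 0.0335). DESeq2 called 11 rising and 0 falling. The count of 14 fell to 4 without the cycloheximide-only library, 5 without point 3 or without LiCl only, and 7 without point 5 or point 6.

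Of 15 genes of debranching and decay, 5 rose (NAM7, NMD2, RAT1, RRP6 and AIR1) and EDC3, an activator of decapping, fell. Over all 6498 genes 16.5% rose and 15.1% fell. Without the cycloheximide-only library 2 rose and 0 fell, and without point 3, point 6 or LiCl only 3 rose. The fall of EDC3 was also lost with scaling by total CDS counts and without point 2, point 3, point 5 or LiCl only. NAM7 and NMD2 encode core factors of nonsense-mediated decay, and NAM7 was at 132 CPM in LiCl only and 80.0 CPM with no drug. RRP6, the nuclear exosome exonuclease, was at 111 and 30.7 CPM, with 53.9 CPM in cycloheximide only. AIR1, a subunit of a complex that marks nuclear RNA for the exosome, was at 28.0 and 6.35 CPM.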
